A study of Oryza sativa Japonica Group with 8 samples.

Results

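Membrane transporters are proteins that sit in a lipid bilayer and move ions, water, amino acids, sugars or lipids across it, either along a gradient, coupled to protons, or driven by ATP. In a flowering panicle, sugars, amino acids and mineral ions reach the anther and the growing pollen across cell membranes, since the developing pollen grains are not joined to the surrounding tissue. The transporter genes of young rice panicles were examined in wild type plants and in a dcl3b knockdown mutant. OsDCL3b belongs to the Dicer-like enzymes, which process long double-stranded RNA to short interfering RNAs (siRNAs).

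The genes were chosen by their descriptions: the 2 deposited gene lists, 1 for each direction of change in the knockdown, were pooled, and a gene was taken when its description held the word transporter, aquaporin, permease or antiporter. Descriptions with the words transposon, kinase or lipid transfer would have been left out, and 0 genes met that condition. The rule found 35 of 1174 listed genes. All 35 had been listed by the authors for differing between the same libraries, so their levels are given as a description and lend no separate support to a difference.

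Both genotypes were japonica rice grown in a paddy field, and young panicles were collected before heading. The wild type and the knockdown each had 3 mRNA libraries and 1 small RNA library. The labels do not say how the knockdown was made, how many lines it comprised, or if each library was made from its own plants, and the authors' p-values may measure technical spread. The targeted gene, LOC_Os10g34430, described as Dicer, had 0.97, 0.98 and 0.88 FPKM in replicates 1, 2 and 3 of wild type against 0.39, 0.50 and 0.44 FPKM in those of the knockdown. FPKM is a read count scaled to transcript length and library size, the files round it to 2 decimals, and no library depth can be read from it. In a whole panicle, fewer cells of a type and less RNA per cell cannot be told apart.

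Of the 35 transporter genes, 19 were listed as higher and 16 as lower in the knockdown. That is a near-even split, as it was over all listed genes, of which 54.9% were higher and 45.1% lower. Transporter genes that were higher started from a median of 0.227 FPKM in wild type and reached a median of 0.833 FPKM in the knockdown. Those that were lower went from a median of 1.59 to 0.618 FPKM. None of the 19 was listed at 0 in all 3 wild type libraries, against 133 of the 644 listed genes that were higher. In the authors' deposited table the 19 genes had a median log2 fold change of 1.67, compared with 2.57 over all genes listed as higher, or 2.04 over the 511 of these that were above 0 in a wild type library. For the 16 lower genes the median in the authors' deposited table was -1.35, against -1.44 over all 530.

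**Figure D1:**
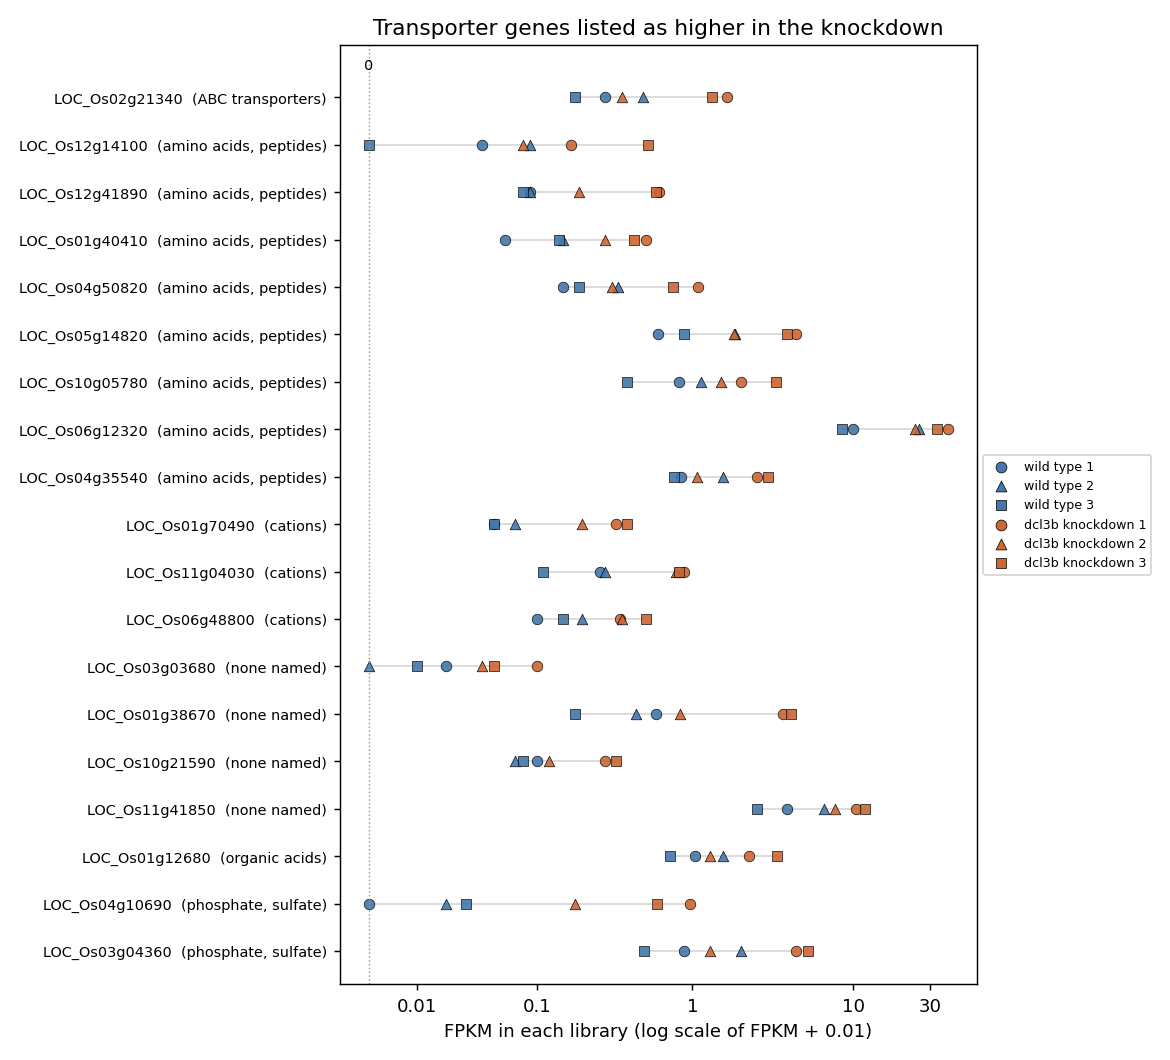
FPKM of each of the 19 transporter genes listed as higher, on a log axis of FPKM + 0.01, with wild type in blue, the knockdown in orange and marker shapes for replicates 1, 2 and 3. Knockdown replicate 2 (orange triangle) is the lowest knockdown library in 18 of the 19 genes and lies below wild type replicate 2 (blue triangle) in 8.

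Amino acid carriers formed the most numerous class by description. These proteins load amino acids, the main form in which nitrogen travels to growing organs, into cells together with protons. The 12 genes with amino acid in their description divided evenly, with 6 higher and 6 lower. In the authors' deposited table their log2 fold changes ran from 1.03 to 2.50 for the higher and from -1.51 to -1.03 for the lower genes. The higher 6 began at a median of 0.588 FPKM and the lower 6 at 3.06 FPKM in wild type.

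LOC_Os12g41890, an amino acid permease family gene, stood at 0.09, 0.09 and 0.08 FPKM in wild type, against 0.62, 0.19 and 0.59 FPKM in the knockdown. All knockdown libraries lay above all wild type libraries, with knockdown replicate 2 closest to them. The authors' deposited table gives a log2 fold change of 2.42 (adjusted p = 0.000276). LOC_Os01g40410, a transmembrane amino acid transporter gene, was at 0.06, 0.15 and 0.14 FPKM and at 0.51, 0.28 and 0.43 FPKM, again without overlap (authors' deposited table: log2 fold change 1.72, adjusted p = 0.00273). LOC_Os12g14100 gave 0.04, 0.09 and 0 FPKM in wild type, against 0.17, 0.08 and 0.53 FPKM in the knockdown. Its genotypes overlapped, and the log2 fold change of 2.50 that the authors' deposited table gives (adjusted p = 0.0332) rested on knockdown replicates 1 and 3. The remaining 2 higher amino acid genes besides LOC_Os06g12320, described next, had means of 1.06 and 1.11 FPKM in wild type, against 2.18 and 3.36 FPKM in the knockdown, and in both the genotypes overlapped.

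LOC_Os06g12320 and LOC_Os06g12330, amino acid transporter genes with adjoining locus numbers, moved in opposite directions. LOC_Os06g12320 had the highest level of the 19 higher genes, at 10.01, 25.6 and 8.51 FPKM in wild type, against 38.6, 24.04 and 32.99 FPKM in the knockdown. Wild type replicate 2 lay above knockdown replicate 2, so the genotypes overlapped (authors' deposited table: log2 fold change 1.11, adjusted p = 0.0113). LOC_Os06g12330 fell from 9.37, 7.29 and 9.49 FPKM in wild type to 1.96, 4.65 and 2.55 FPKM, with no overlap (authors' deposited table: log2 fold change -1.51, adjusted p = 3.1e-07). In FPKM, which is scaled to length, the first gene was 1.07, 3.52 and 0.897 times the second in the wild type libraries and 19.7, 5.17 and 12.9 times in the knockdown. All knockdown ratios were above all wild type ratios. The ratio sets a gene listed as higher over a gene listed as lower in the same libraries. Its rise in the knockdown was therefore set by the listing. The counting of reads that match more than one place is not described in these sources, and sharing of reads between related neighbouring genes was not tested.

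**Figure D2:**
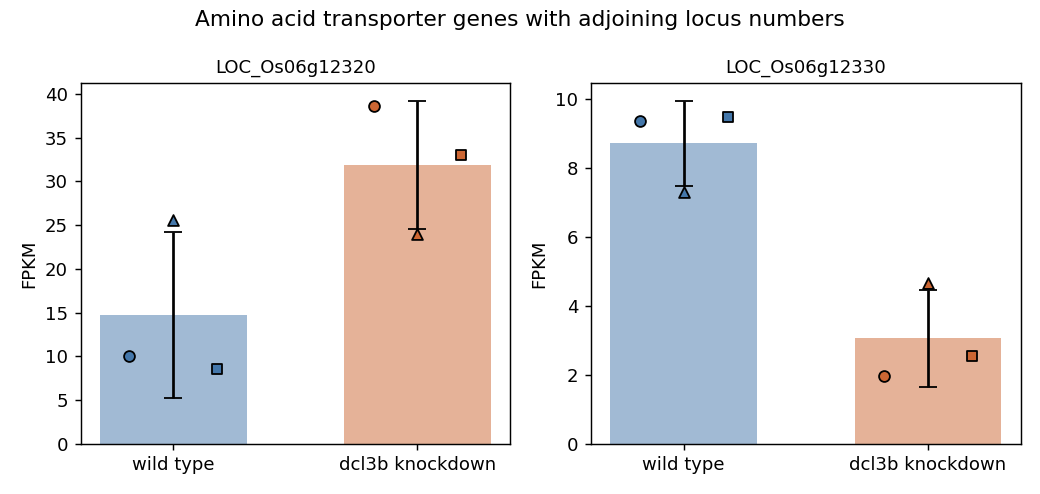
FPKM of LOC_Os06g12320 (left) and LOC_Os06g12330 (right) in wild type and knockdown; bars are means of 3 libraries, error bars are SD, and marker shapes are replicates 1 (circle), 2 (triangle) and 3 (square). The left gene goes from 14.7 ± 9.49 to 31.9 ± 7.36 FPKM and the right gene from 8.72 ± 1.24 to 3.05 ± 1.41 FPKM (SD, n = 3), on axes of different range.

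Among the other amino acid genes that were lower, LOC_Os03g14080 went from 0.79, 0.50 and 1.04 FPKM to 0.23, 0.44 and 0.19 FPKM, with knockdown replicate 2 just under wild type replicate 2. The authors' deposited table gives a log2 fold change of -1.41 (adjusted p = 0.00512). LOC_Os10g05690 was at 0.62, 0.32 and 0.78 FPKM and at 0.23, 0.34 and 0.15 FPKM, and here replicate 2 of the genotypes crossed (authors' deposited table: log2 fold change -1.21, adjusted p = 0.0222). The other 3, LOC_Os05g50920, LOC_Os11g06820 and LOC_Os12g09320, had wild type means from 1.40 to 5.89 FPKM and knockdown means from 0.62 to 2.87 FPKM. LOC_Os11g06820, singled out after its values were seen, was the only further lower gene whose genotypes overlapped.

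Peptide carriers were 3, of which 2 were higher and 1 lower. The POT and PTR2 descriptions belong to a proton-coupled family that in plants carries nitrate and hormones as well as small peptides, and oligopeptide transporters form a separate family that also moves metal chelates. LOC_Os01g55600, a PTR2 gene, was even in wild type, at 11.8, 11.2 and 11.4 FPKM, and fell to 2.81, 5.90 and 3.87 FPKM. Its groups stood far apart (authors' deposited table: log2 fold change -1.45, adjusted p = 5.33e-09). LOC_Os04g50820, an oligopeptide transporter gene, was at 0.15, 0.34 and 0.19 FPKM and at 1.08, 0.31 and 0.76 FPKM, with knockdown replicate 2 inside the wild type range (authors' deposited table: log2 fold change 1.63, adjusted p = 0.0133). The POT domain gene LOC_Os10g05780 averaged 0.783 FPKM in wild type and 2.28 FPKM in the knockdown, without overlap.

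Both phosphate carrier genes were higher and the 1 sulfate carrier gene was lower. Many plant phosphate and sulfate carriers take up these anions together with protons. LOC_Os04g10690, an inorganic phosphate transporter gene, had the largest fold of all 35. It was nearly silent in wild type, at 0, 0.02 and 0.03 FPKM, and reached 0.97, 0.18 and 0.60 FPKM in the knockdown (authors' deposited table: log2 fold change 4.74, adjusted p = 3.88e-06). The groups did not overlap, but wild type values of so few hundredths are close to the rounding of the file. The second phosphate gene, LOC_Os03g04360, was at 0.89, 2.02 and 0.50 FPKM and at 4.41, 1.28 and 5.22 FPKM, with replicate 2 crossed between genotypes (authors' deposited table: log2 fold change 1.67, adjusted p = 0.0153). LOC_Os10g28440, described as sulfate transporter 3.1, fell from 0.63, 0.76 and 0.78 FPKM to 0.24, 0.47 and 0.17 FPKM (authors' deposited table: log2 fold change -1.28, adjusted p = 0.013). Its 3 knockdown values all lay below wild type.

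Cation carriers were 3 by substrate. LOC_Os01g70490, a potassium transporter gene, rose from 0.05, 0.07 and 0.05 FPKM to 0.33, 0.20 and 0.39 FPKM (authors' deposited table: log2 fold change 2.29, adjusted p = 3.1e-05). LOC_Os06g48800, named OsHKT2;4 in the files and described as a sodium transporter of the HKT family, rose from 0.10, 0.20 and 0.15 FPKM to 0.35, 0.36 and 0.51 FPKM (authors' deposited table: log2 fold change 1.39, adjusted p = 0.0438). It was the 1 higher gene in which knockdown replicate 2 was not the lowest knockdown library. LOC_Os09g37300, of the monovalent cation:proton antiporter-2 family, which exchanges potassium or sodium ions for protons, fell from 2.18, 1.04 and 2.1 FPKM to 0.50, 0.91 and 0.44 FPKM (authors' deposited table: log2 fold change -1.50, adjusted p = 0.000767). None of the 3 overlapped, although wild type replicate 2 and knockdown replicate 2 of the last lay close together.

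Copper and water carriers were represented by 1 gene each and organic acid carriers by 2, of which 1 was lower and 1 was higher. LOC_Os08g35490, of the ctr family that imports copper, fell from 1.64, 0.98 and 1.15 FPKM to 0.14, 0.60 and 0.40 FPKM (authors' deposited table: log2 fold change -1.69, adjusted p = 0.0322). LOC_Os07g26630, an aquaporin gene whose product forms a water channel, fell from 24.3, 17.2 and 20.99 FPKM to 6.71, 7.88 and 7.72 FPKM. Its knockdown libraries agreed closely, at 7.44 ± 0.634 FPKM (SD, n = 3), and it had the smallest adjusted p of the 35 in the authors' deposited table (6.31e-17, log2 fold change -1.49). LOC_Os02g49790, an aluminum-activated malate transporter gene of a family of anion channels, was at 0.05, 0.12 and 0.10 FPKM in wild type, against 0, 0.02 and 0 FPKM in the knockdown. It had the deepest log2 fold change of the lower genes in the authors' deposited table, -3.57 (adjusted p = 0.0364), at levels close to the rounding of the file. LOC_Os01g12680, described as a C4-dicarboxylate and malic acid transport protein, was at 1.04, 1.55 and 0.72 FPKM and at 2.24, 1.29 and 3.38 FPKM, with overlap (authors' deposited table: log2 fold change 1.05, adjusted p = 0.0213).

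ABC transporters, pumps driven by ATP, were 3. LOC_Os06g40550, with an ABC-2 type transporter domain as in pumps that export lipids and waxes, had the highest mean over the 6 libraries of the 35 genes, with 32.4, 37.3 and 32.99 FPKM in wild type. It fell to 9.21, 20.3 and 13.4 FPKM, with all knockdown values below wild type and replicate 2 the highest of them (authors' deposited table: log2 fold change -1.26, adjusted p = 6.87e-07). LOC_Os08g05690, an ABC transporter ATP-binding protein gene, fell from 0.50, 0.70 and 0.39 FPKM to 0.23, 0.17 and 0.22 FPKM (authors' deposited table: log2 fold change -1.37, adjusted p = 0.000606). In this gene knockdown replicate 2 was the lowest knockdown library. LOC_Os02g21340, of the ABC-2 type family, was at 0.28, 0.49 and 0.18 FPKM and at 1.64, 0.36 and 1.33 FPKM, with replicate 2 crossed (authors' deposited table: log2 fold change 1.80, adjusted p = 0.00492).

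**Figure D3:**
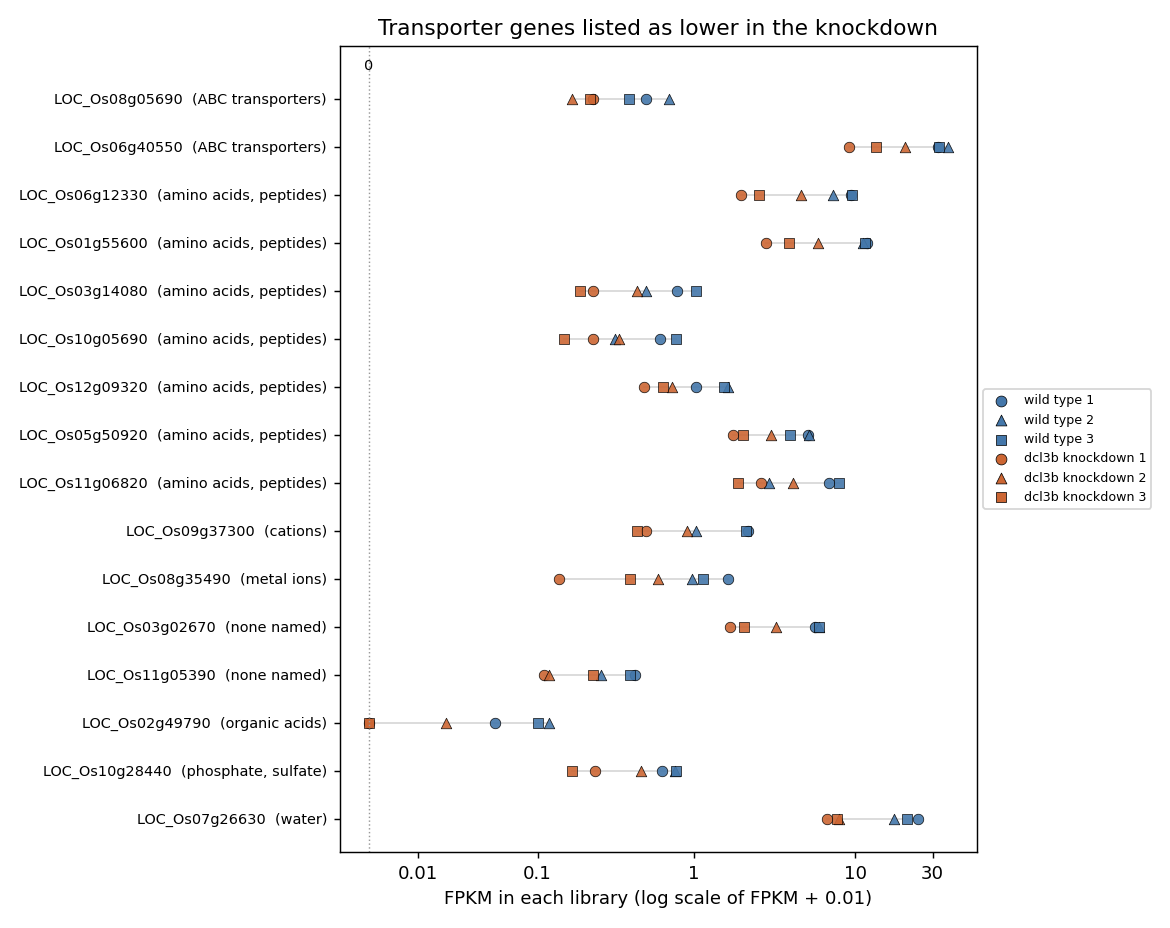
FPKM of each of the 16 transporter genes listed as lower, on a log axis of FPKM + 0.01, with wild type in blue, the knockdown in orange and marker shapes for replicates 1, 2 and 3. In 14 of the 16 genes all orange markers lie left of all blue markers, and in 14 the orange triangle (knockdown replicate 2) is the rightmost orange marker.

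The descriptions of 7 further genes named no substrate. LOC_Os01g38670, a transporter family gene, rose from 0.59, 0.44 and 0.18 FPKM to 3.65, 0.84 and 4.09 FPKM (authors' deposited table: log2 fold change 2.83, adjusted p = 7.45e-06). LOC_Os11g41850, of the same description, was well expressed and rose from 3.88, 6.56 and 2.53 FPKM to 10.4, 7.74 and 11.8 FPKM (authors' deposited table: log2 fold change 1.20, adjusted p = 0.000695). In the first, knockdown replicate 2 stood well below the other knockdown libraries, and in the second it stood just above wild type replicate 2.

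LOC_Os10g21590 rose from 0.10, 0.07 and 0.08 FPKM to 0.28, 0.12 and 0.33 FPKM (authors' deposited table: log2 fold change 1.54, adjusted p = 0.0236). LOC_Os03g03680 was the lowest of the higher genes, at 0.02, 0 and 0.01 FPKM and at 0.10, 0.04 and 0.05 FPKM (authors' deposited table: log2 fold change 2.87, adjusted p = 0.0205). At such levels the rounding step of 0.01 FPKM is a large part of each wild type value. The major facilitator superfamily antiporter gene LOC_Os11g04030 rose from 0.26, 0.28 and 0.11 FPKM to 0.89, 0.79 and 0.82 FPKM (authors' deposited table: log2 fold change 1.93, adjusted p = 2.05e-08). The major facilitators are a large family of carriers for sugars, ions and metabolites. This gene had the smallest adjusted p of the higher genes, and all 3 of its knockdown libraries lay close together.

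The lower genes without a named substrate were 2. LOC_Os03g02670, a transporter family gene, was even in wild type, at 5.66, 5.93 and 5.93 FPKM, and fell to 1.68, 3.22 and 2.05 FPKM (authors' deposited table: log2 fold change -1.33, adjusted p = 4.69e-08). LOC_Os11g05390, of the major facilitator family, fell from 0.43, 0.26 and 0.40 FPKM to 0.11, 0.12 and 0.23 FPKM (authors' deposited table: log2 fold change -1.28, adjusted p = 0.0274). Neither overlapped between genotypes.

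How firmly the genes separated the genotypes differed between directions. All knockdown values lay above all wild type values in 11 of the 19 higher genes (57.9%), against 84.6% of all genes listed as higher and 81.2% of those above 0 in a wild type library. For the lower genes the count was 14 of 16 (87.5%), against 89.1% of all genes listed as lower. An exact permutation test of 3 libraries against 3 cannot give p below 0.10 for a single gene. Among the amino acid genes, 2 of 6 higher and 4 of 6 lower genes were free of overlap.

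Without knockdown replicate 2 the genotypes were separate in all 19 higher and all 16 lower genes, and likewise without wild type replicate 2, while leaving out any other single library kept the counts at 11 and 14. Most listed genes were also separate then, 96.7% of the higher and 98.9% of the lower without knockdown replicate 2, and 94.7% and 99.2% without wild type replicate 2, so the complete separation of the transporter genes was near the background. Knockdown replicate 2 lay nearest to wild type in 18 of the 19 higher genes (94.7%) and 14 of the 16 lower genes (87.5%). The shares over all listed genes were 60.1% and 67.2%, and 67.7% of the higher genes above 0 in a wild type library. That library also lay nearest in 3 of 3 higher and 4 of 4 lower membrane transport genes outside the chosen descriptions. Among marker groups, which may share genes, it lay nearest in 11 of 11 tapetum, 6 of 7 pollen and 6 of 6 histone genes. The counts were 1 of the 2 genes found by words for photosynthesis, 2 of 9 heat shock and 2 of 5 cyclin genes. Wild type replicate 2 was the wild type library nearest to the knockdown in 14 higher (73.7%) and 9 lower (56.3%) transporter genes. Over all listed genes the shares were 39.9% and 54.9%, and 50.3% of the higher genes above 0 in a wild type library.

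The position of each library was measured on the log2(FPKM + 0.5) scale, with 0% at the wild type mean and 100% at the mean of the other 2 knockdown libraries. Knockdown replicate 2 had a median position of 30.5% over the 19 higher genes and 54.2% over the 16 lower genes. Its medians were 72.5% and 67.5% over all listed genes, and 63.1% over the higher genes above 0 in a wild type library. For replicates 1 and 3 the medians were 150% and 153% in the higher genes and 130.3% and 114% in the lower genes. Over all listed genes they were 113.6% and 113.1% in the higher and 122.6% and 116% in the lower genes. In the higher genes above 0 in a wild type library they were 116.8% and 118.8%. The 100% mark for replicates 1 and 3 includes replicate 2, so a low replicate 2 raises their positions by construction. Among the higher genes, replicate 2 ran from 4.05% for LOC_Os04g35540, an amino acid permease gene, to 92.4% for the antiporter gene LOC_Os11g04030. The first of these was singled out after its values were seen.

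**Figure D4:**
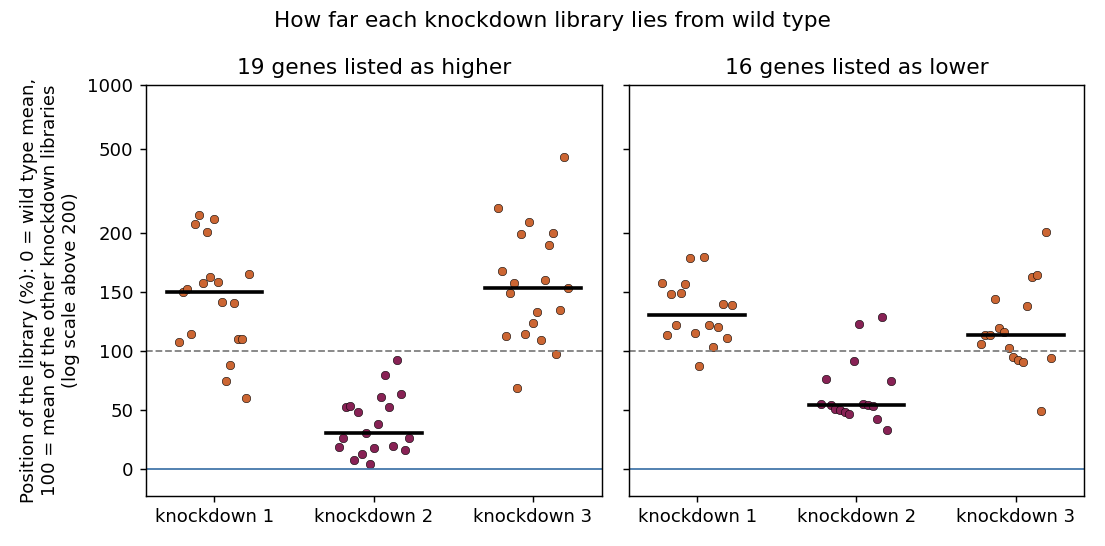
Position of knockdown replicates 1, 2 and 3 for each transporter gene on the log2(FPKM + 0.5) scale, where 0% is the wild type mean and 100% the mean of the other 2 knockdown libraries (the axis is linear to 200% and logarithmic above), with black lines at the medians. Replicate 2 has a median of 30.5% in the 19 higher genes (left) and 54.2% in the 16 lower genes (right), below the medians of replicates 1 and 3 in both.

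Set against each other, the libraries numbered 2 differed little or ran the other way in many of the higher genes. Knockdown replicate 2 was below wild type replicate 2 in 8 of the 19, which are the 8 whose genotypes overlapped, and above it in 2 of the 16 lower genes. Over all listed genes the same held for 68 of 644 higher genes (10.6%) and 48 of 530 lower genes (9.06%). Among the higher genes above 0 in a wild type library it held for 13.3%. The transporter genes stood at 42.1% and 12.5%. For the phosphate gene LOC_Os03g04360 the ratio of knockdown to wild type was 6.93 in the means of replicates 1 and 3 and 0.634 in replicate 2. The ABC-2 gene LOC_Os02g21340 gave 6.46 and 0.735. In the aquaporin gene LOC_Os07g26630 the ratios were 0.319 and 0.457, and in the antiporter gene LOC_Os11g04030 they were 4.62 and 2.82, so these genes kept their direction in both. The replicate number does not pair plants or batches in the labels.

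**Figure D5:**
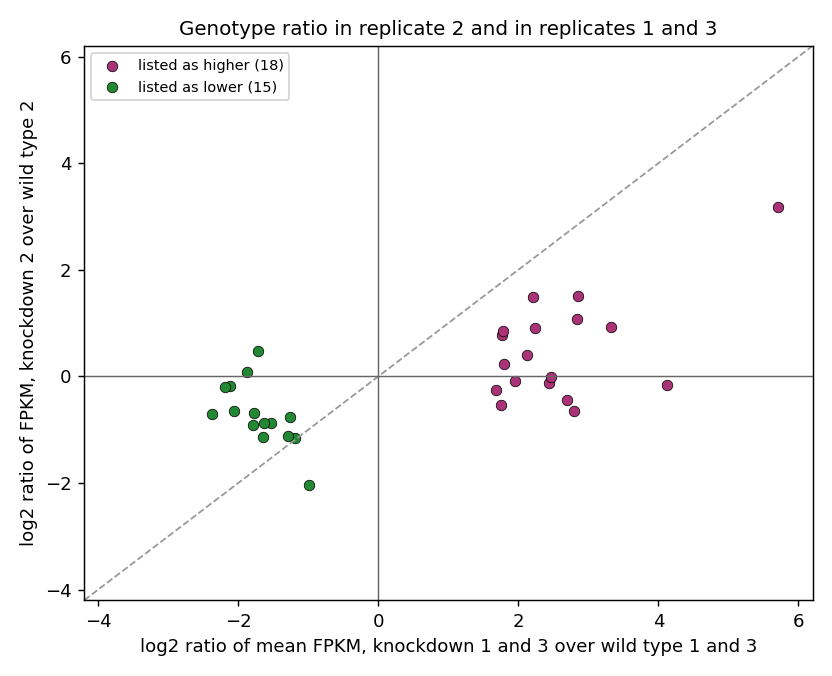
log2 ratio of knockdown to wild type FPKM in replicate 2 (vertical axis) against the ratio of mean FPKM in replicates 1 and 3 (horizontal axis) for the 33 transporter genes above 0 in both ratios; the dashed line marks equal ratios. Points right of 0 and below the horizontal line are the 8 higher genes that ran the other way in replicate 2, and the 2 points at upper left are the lower genes that did.

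In a re-test with limma on log2(FPKM + 0.5), which runs on values already used for listing and only serves to compare settings, 11 of the 19 higher and 13 of the 16 lower genes had an adjusted p of at most 0.05. The shares over all listed genes were 80% and 90.9%. The count of higher genes moved with single libraries: it was 17 when knockdown replicate 2 was left out and 2 when wild type replicate 1 was left out. Leaving out wild type replicate 3, knockdown replicate 1 or knockdown replicate 3 gave 4 each, and leaving out wild type replicate 2 gave 10. The count of lower genes ran from 9 to 15. Shares over all listed genes are given for the main fit only. Whether these counts moved more than those of all listed genes was therefore not shown.

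Markers of anther tissue differed between the same libraries. Of 13 loci of a tapetum and anther list (the tapetum is the layer of the anther wall that nourishes pollen), 10 were listed as lower, 1 as higher and 2 were not listed. Their summed level ran from 1874 to 2205 FPKM in wild type and from 868 to 1376 FPKM in the knockdown. The 10 lower loci alone summed to 1806 to 2048 FPKM in wild type and 537.5 to 1174 FPKM in the knockdown. The 1 higher locus, LOC_Os01g70440, held 331, 112 and 611 FPKM in the knockdown libraries. None of the loci was at 0 in any library, and knockdown replicate 2 was nearest to wild type in all 11. By description, 3 pollen and anther genes were higher and 4 lower. This group was not kept apart from the tapetum and anther list, and the description of LOC_Os01g70440 names an anther-specific protein. Together they summed to 373 to 477 FPKM in wild type and 352 to 827 FPKM in the knockdown. The 4 lower genes alone summed to 281 to 338 FPKM and 76.3 to 211 FPKM. The 9 heat shock genes (82.0 to 128 against 33.2 to 45.0 FPKM), the 6 histone genes (79.2 to 213 against 48.8 to 91.5 FPKM) and the 5 cyclin genes (1.9 to 2.31 against 0.40 to 0.68 FPKM) were all lower. The words for photosynthesis found 2 higher genes, a chlorophyll A-B binding protein and a ferredoxin--nitrite reductase (11.5 to 25.3 against 30.5 to 70.1 FPKM). Unlisted markers were not analysed here, and the part of any of these tissues in the transporter levels was not tested.

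Membrane transport genes outside the chosen descriptions numbered 7 among the listed genes, with 3 higher and 4 lower. The 3 higher genes were all nodulin MtN3 genes, the family of sugar effluxers known as SWEET. LOC_Os01g50460 rose from 1.46, 1.52 and 0.91 FPKM to 4.18, 1.99 and 3.10 FPKM, and LOC_Os05g12320 from 1.65, 1.51 and 1.11 FPKM to 3.50, 1.90 and 3.32 FPKM. LOC_Os01g42110 was at 0.82, 0.69 and 0.68 FPKM and at 1.73, 0.73 and 2.69 FPKM, with overlap. LOC_Os09g08030, the lower gene of that description, fell from 1.02, 1.74 and 1.53 FPKM to 0.33, 0.65 and 0.07 FPKM. Of these genes only LOC_Os01g42110 overlapped between genotypes. The white-brown complex homolog gene LOC_Os05g02870, of the ABC pumps, fell from 0.26, 0.36 and 0.55 FPKM to 0.06, 0.12 and 0.05 FPKM, and a potassium channel gene, LOC_Os07g01810, from 1.82, 1.0 and 2.18 FPKM to 0.72, 0.86 and 0.58 FPKM.

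By their locus IDs the 35 genes were spread over all 12 chromosomes, with 1 to 5 on each. Another listed gene stood within 50 locus numbers of 12 of them (34.3%), against 31.7% of all listed genes. Those neighbours had the same direction as the transporter gene in 6 cases and the opposite one in 6. The potassium transporter gene LOC_Os01g70490 lay near LOC_Os01g70440, an anther-specific LEM1 family gene at 97.3, 157 and 22.1 FPKM in wild type, against 331, 112 and 611 FPKM in the knockdown, and near the retrotransposon gene LOC_Os01g70540, at 0.05, 0.10 and 0.09 and at 0.39, 0.19 and 0.41 FPKM. In all 3 genes knockdown replicate 2 was the lowest knockdown library.

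The small RNA tables were searched for windows at transporter loci. They list 11 windows of 21-nt and 113 windows of 24-nt siRNA, each 500 bases long and called changed by the authors, with 1 library per genotype and so no test. None of the 35 transporter genes was named by a window, and only 8 windows named any of the 1174 listed genes, so few such matches were available for any gene group. Windows of 24-nt siRNA named 3 other loci with a transporter description, and none of these loci was among the listed mRNA genes. Values are in RPTM, read as a count per 10000000 sequenced reads, and their step sizes put the depth at 8037512 reads for wild type and 7358371 for the knockdown. The genome build of the positions is not stated in these sources.

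The window on chromosome 11 from 25766500 to 25766999, at LOC_Os11g42780, an unclassified transposon gene, and LOC_Os11g42790, a cation:proton antiporter-2 gene, held 15 reads (18.7 RPTM) in wild type and 188 reads (255 RPTM) in the knockdown. The ratio was 13.7, with an exact (Clopper-Pearson) 95% binomial interval of 8.09 to 24.9 that covers counting error only. On chromosome 9, the window from 13666000 to 13666499 at the transporter family gene LOC_Os09g23110 held 108 reads (134 RPTM) in wild type and 0 in the knockdown. The window from 17763500 to 17763999 at the purine permease gene LOC_Os09g29239 held 87 reads (108 RPTM) and 0. A count of 0 allows up to 4.08 RPTM in the knockdown library (3 reads). Purine permeases carry nucleobases and the plant hormone cytokinin.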

How the data were processed

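The tools named in the submitters' processing notes are edgeR, Bowtie 1.1.2 and TopHat2 2.1.0, with no role given. The authors deposited FPKM of each mRNA library for the genes they called. The authors' tables also hold a log2 fold change (knockdown relative to wild type), with its p-value and its adjusted p-value. The authors also deposited a signal in RPTM for small RNA windows. Only called genes and windows were held, so no test across the genome was made.

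Transporter genes, substrate classes and marker lists were chosen with earlier results of these data known. Named with values in every library were the 4 genes with the largest fold per class and direction and the 3 with the highest level per direction. The keyword classes put LOC_Os11g04030 with the cations for the word antiporter, and the text gives it with the genes whose descriptions name no substrate. The keywords put 29 of the 35 genes under that rule, and the other 6 were added by mean or range.

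limma 3.58.1 in R 4.3.3 was fitted to all 1174 listed genes on log2(FPKM + 0.5), two-sided, with Benjamini-Hochberg adjustment, after being tested on simulated data. The simulation gave every gene independent noise of the same size and left most genes unchanged. It therefore checked the code and not how well the fit suits these listed genes. The pseudocount makes fold changes of low genes smaller. Other tables were made in Python 3.11.15 with SciPy 1.17.1. All 121 nonzero window values of wild type and all 100 of the knockdown were whole multiples of 1.24 and 1.36 RPTM, within 0.01 RPTM, which gave the read counts. The p-values and ratios of windows were not used. The available gene table shares 0 IDs with the files, so genes carry locus ID and description, and no sequences are shown. Alternatives were other pseudocounts, a replicate block, a filter on low values, limma-trend, stricter limits, a wider set of descriptions and each library left out. Leaving out replicate 2 of both genotypes was added after the data were seen.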

Additional observations from a re-analysis of the deposited data

How the results depend on the processing

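The median log2 differences kept their sign under every setting run. The genes were grouped by their direction in these same libraries. The kept sign and the 0 reversals given below therefore lend no separate support. On the log2(FPKM + 0.5) scale the medians were 0.77 for the higher and -0.91 for the lower transporter genes. With a pseudocount of 0.1 they were 1.27 and -1.16, with a library left out 0.637 to 1.057 and -1.128 to -0.791, and without replicate 2 of both genotypes 1.25 and -1.184. Of the 19 higher genes, 2 to 17 passed the re-test with a library left out, 17 without replicate 2 of both, 2 with a replicate block and 4 of 6 where the authors' deposited table gives a log2 change of 2 or more in size. Of the 16 lower genes 8 passed with the replicate block, and 1 of 1 at that fold limit. Higher genes without overlap numbered 7 of 14 with the lowest 25% by mean left out, 5 of 6 at the fold limit and 11 to 19 with a library left out or replicate 2 of both. Lower genes without overlap were 1 of 1 at the fold limit and 9 of 9 at an adjusted p of at most 0.01. The strict limits hold fewer genes by construction, and the cause of the other shifts was not tested. Apart from the overlap counts without knockdown or wild type replicate 2, no shares over all listed genes accompany these counts. The shifts are therefore not shown to be particular to the transporter genes. Over 364 values of the 29 named genes under alternatives 0 reversed, 285 kept their side of the threshold, 51 lost it and 28 gained it.

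Whether the replicate numbers pair the libraries could not be decided. The genes were listed for differing between these same libraries, and the deviations within a genotype are not independent. Deviations from the group means over the listed genes correlated at -0.043, -0.53 and -0.427 for numbers 1, 2 and 3, and the strongest correlation was 0.559, between wild type replicate 3 and knockdown replicate 2. Wild type replicate 2 and knockdown replicate 3 stood at 0.383. The lost calls under the replicate block do not show a weaker effect. Values of a few hundredths of an FPKM are limited by the rounding of the files.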
